A study of Mus musculus with 2 samples.

Results

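Chromosome 16 of the mouse carries 38 of the 1112 olfactory receptor (Olfr) entries of the deposited table. Olfr15 is left out here, and the other 37 entries with a locus on chromosome 16 of mouse build mm9 are described. They were chosen by position, apart from the omission of Olfr15 by name, and no measured value enters the rule. RNA was sequenced from the olfactory epithelium of adult C57BL/6 mice. Both samples, n = 2, carry the title and the genotype label of wild type, but in the description fields one is wt and the other 3bko, a term left unexplained in the sources used here. Each gene has 1 FPKM (fragment counts divided by gene length and by the library's mapped fragments), which is tied to neither library, since every row of the table names both wt and 3bko. Each value below is therefore the authors' single value, with no replicate, no standard deviation and no test, and depth is unknown. The table holds receptor genes only and none of 13 marker genes of olfactory neurons or other cells of the tissue, so the tissue label could not be checked.

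Odorant receptors are G protein-coupled receptors of the olfactory sensory neurons, and their genes lie in arrays of related genes that arose largely by local duplication. A mature olfactory neuron transcribes, as a rule, 1 allele of 1 receptor gene. A receptor's level in the whole tissue thus depends both on how many neurons chose it and on how much RNA each of them holds, and these cannot be told apart here. No source used here gives ligands for the receptors named below.

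The 37 genes fell into 4 places on the chromosome when loci with less than 1 Mb between neighbours were joined. Olfr161 lies at 3.6 Mb, near Olfr15 but with no other member beside it. Olfr19, also called M12, lies alone at 16.7 Mb. A cluster of 8 genes runs from Olfr164 to Olfr171 at 19.3 to 19.6 Mb and holds Olfr166, and it is called the Olfr166 cluster below. The distal cluster of 27 genes runs from Olfr172 to Olfr208 at 58.8 to 59.4 Mb, 39.1 Mb further along. None of the 37 has a class I (fish-like) family name.

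Both clusters hold sets of near copies beside less similar genes, such as Olfr167, whose closest member was Olfr166 at 69.4% identity. Coding sequences of 36 members were found in GENCODE M21, and the sequence of Olfr176 was not used here. For 34 of these 36 genes the closest member by coding identity lay in the same cluster, and the exceptions were the lone loci Olfr161 and Olfr19. The median coding identity of 2 members was 61.9% within the Olfr166 cluster (28 pairs), 66.2% within the distal cluster (325 pairs) and 55.6% between places (277 pairs). The closest relative of Olfr166 is Olfr168, with an identity of 95.7% and 40 differences over 939 bases. It is shown first because these are the 2 highest of the 37 members and a short read from much of their coding sequence fits both. The stretch below, bases 479 to 654 of the coding sequence counted from the start codon, is identical in the 2 genes. It is the longest such run, at 176 bases.

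Olfr166 and Olfr168: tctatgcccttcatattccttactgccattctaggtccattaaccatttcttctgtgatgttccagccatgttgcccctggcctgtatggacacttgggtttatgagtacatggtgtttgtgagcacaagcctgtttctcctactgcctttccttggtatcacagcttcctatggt

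The 120-base window with the most differences lies near the start of the coding sequence. Its bases, 9 to 128, hold 16 of the 40 differences, shown here in capitals.

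Olfr166: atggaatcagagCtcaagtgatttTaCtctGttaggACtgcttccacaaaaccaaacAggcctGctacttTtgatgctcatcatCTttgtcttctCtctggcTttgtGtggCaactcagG
Olfr168: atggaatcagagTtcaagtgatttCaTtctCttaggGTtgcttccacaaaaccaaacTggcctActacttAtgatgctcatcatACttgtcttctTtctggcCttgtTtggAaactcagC

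In the distal cluster the pair that shares most is Olfr194 and Olfr203, from opposite strands, with an identity of 96.0%. Of their 37 differing alignment columns, 3 of them gaps, 21 lie in the stretch below (capitals), at bases 13 to 132 of Olfr194 and 16 to 135 of Olfr203. A run of 307 bases further on is identical.

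Olfr194: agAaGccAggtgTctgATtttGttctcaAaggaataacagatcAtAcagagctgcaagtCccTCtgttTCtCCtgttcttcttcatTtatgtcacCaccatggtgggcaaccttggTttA
Olfr203: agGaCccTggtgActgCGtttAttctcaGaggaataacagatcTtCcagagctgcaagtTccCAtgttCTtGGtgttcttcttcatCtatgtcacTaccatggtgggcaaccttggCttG

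Chromosome 16 receptors had a higher median than the table as a whole. Their median FPKM was 3.50, with quartiles of 1.20 and 7.77 and a range from 0.0434 to 36.5, against a median of 1.09 over all 1112 entries and 1.05 over the 1075 others. Of the 37, 31 (83.8%) reached an FPKM of 1, against 52.5% of all entries. At 5 or more there were 15 (40.5%), against 14.3%, and at 10 or more there were 4 (10.8%), against 5.40%. As 3.33% of the rows, the members held 7.01% of the table's FPKM sum. The difference in median from the other entries was 1.65 on the log2(FPKM + 0.1) scale. It was 1.48 when only entries with no class I family name were compared. No member was listed at 0, against 9 of all 1112 entries. The status NOTEST is the mark of the authors' software for too few alignments to test. It was given to 2 members, Olfr161 and Olfr197, against 203 of all 1112 entries.

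**Figure D1:**
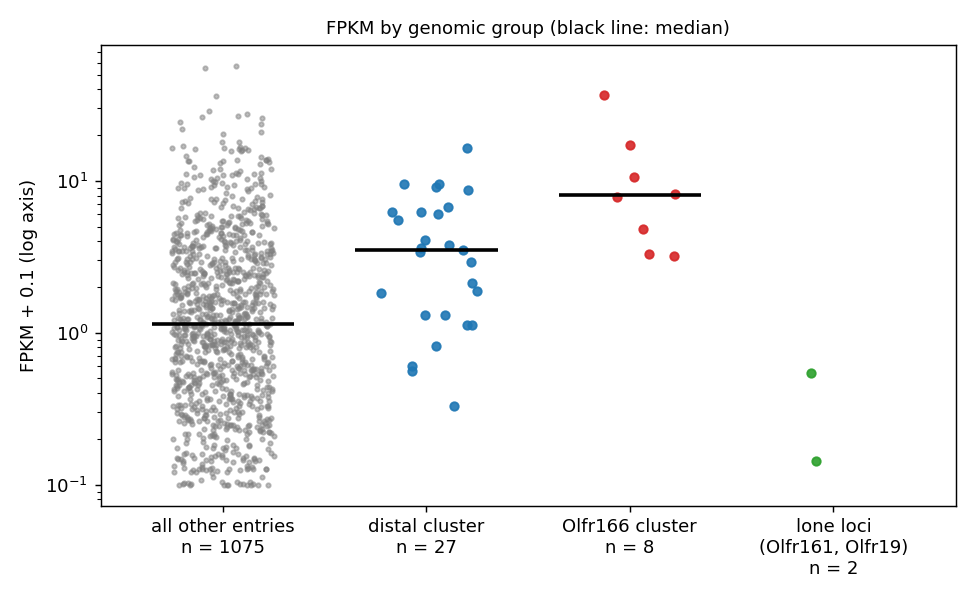
FPKM + 0.1 on a log axis for the 1075 other receptor entries, the distal cluster, the Olfr166 cluster and the lone loci. Each point is 1 gene, the sideways spread has no meaning, and black lines are medians. All 8 genes of the Olfr166 cluster lie above the median of the other entries, and both lone loci lie below it.

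The 4 places differed in level. Olfr161 (3592398 to 3593339) had an FPKM of 0.0434, the lowest of the members, and Olfr19 (16673143 to 16674072) had 0.444. Both are below the median of all entries. The value of Olfr161 is also that of Olfr568 on chromosome 7, whose locus has the same length of 942 bases. The neighbour of Olfr161 that is not counted as a member, Olfr15, had 26.0, so the pair of loci at 3.6 to 3.8 Mb holds a very low and a very high value.

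In the Olfr166 cluster every gene was well above the median of all entries. In order along the chromosome, Olfr164 had an FPKM of 3.10 and Olfr165 had 3.21. Olfr166 (19486933 to 19487871) had 36.5, Olfr167 had 7.77 and Olfr168 (19530073 to 19531011) had 17.2. The series then went down through Olfr169 at 10.5 and Olfr170 at 8.08 to Olfr171 at 4.68. The 2 highest values thus lie near the middle of the cluster, though Olfr167 between them was below Olfr169 and Olfr170. The lowest are at its first 2 loci, which lie 120 kb from each other and 78.8 kb from the rest. The median of the 8 was 7.92, and all 8 had an FPKM of 1 or more. These 8 genes, 0.719% of the rows, held 3.08% of the FPKM sum of the table.

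Olfr166 ranks 3 among all 1112 entries. Its FPKM was 4.70 times the median of the other 7 genes of its cluster (7.77) and 2.12 times that of the next, Olfr168, which ranks 17. It supplied 40.0% of the summed FPKM of the cluster and 17.6% of that of all 37 members. It is also the only gene of the cluster on the plus strand, and the other 7, Olfr168 included, are on the minus strand in GENCODE. No source used here says whether strand was used in counting.

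The coding sequences of Olfr166 and Olfr168 share long stretches, and the effect of this on their values was not tested. Of the 890 stretches of 50 bases (50-mers) in the coding sequence of Olfr166, 387 (43.5%) also occur in Olfr168 and 56.5% occur in no other receptor transcript. No source used here says how reads that match both genes were divided. The sum of the 2 values, 53.7, made up 59.0% of the summed FPKM of the cluster, while the other 6 genes had values from 3.10 to 10.5 with a median of 6.22. Olfr167 lies between the 2 loci, shares no 50-mer with another receptor and had 7.77. Olfr164 and Olfr165 share none either. The MOR273 genes Olfr169, Olfr170 and Olfr171 form a second set of near copies, with identities of 95.6% to 97.1% and unique 50-mer shares of 65.7%, 57.3% and 55.8%. Their values of 10.5, 8.08 and 4.68 span 2.25-fold. The fourth MOR273 entry of the table, Olfr1115, lies on chromosome 2 and had 0.954.

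**Figure D2:**
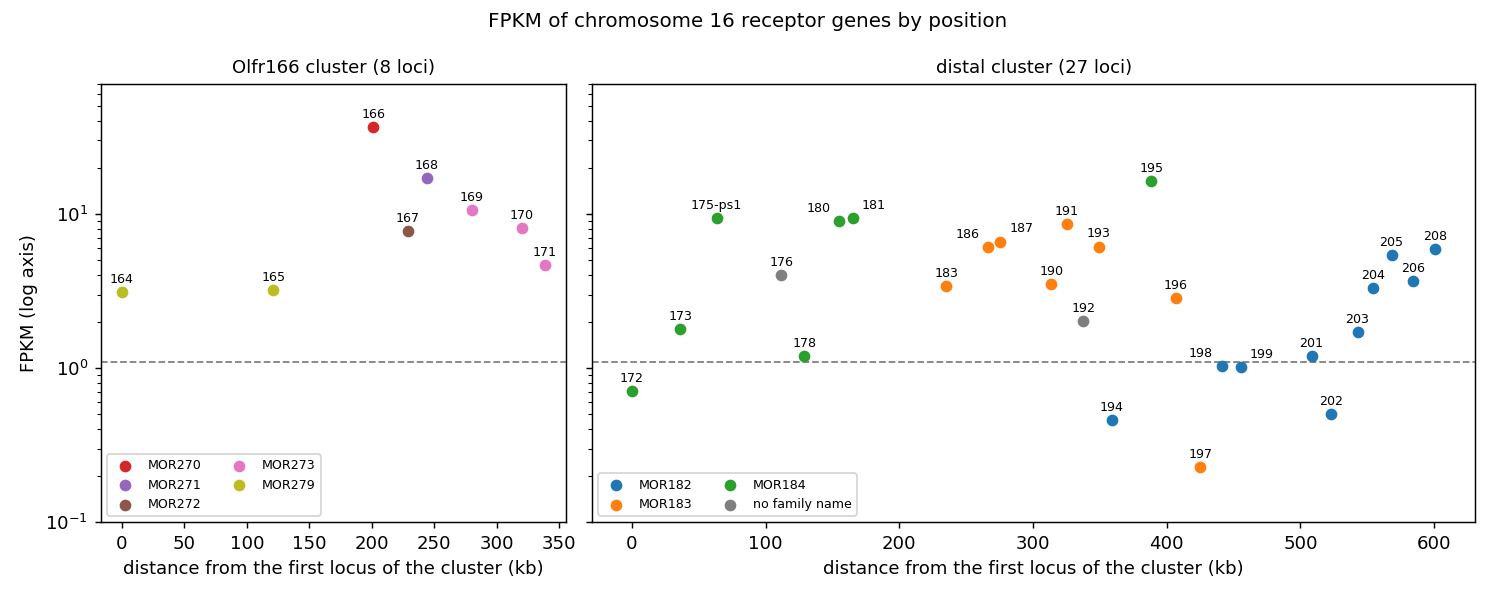
FPKM on a log axis against distance in kb from the first locus, for the Olfr166 cluster (left) and the distal cluster (right). Points are genes, labelled by the number of the Olfr symbol and coloured by receptor family, and the dashed line is the median of all entries, 1.09. The left panel has its top at Olfr166 (36.5), and in the right panel the highest gene is Olfr195 (16.3).

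The distal cluster had a lower median than the Olfr166 cluster over all genes, but not over genes with 80% or more unique coding 50-mers (3.68 over 13 genes against 3.21 over 3). Its 27 genes had a median FPKM of 3.40, quartiles of 1.20 and 6.13 and a range from 0.229 to 16.3, and 23 of them (85.2%) reached 1. The highest was Olfr195 (59148678 to 59149604) at 16.3, with 93.8% of its coding 50-mers unique. Olfr181 at 9.43, Olfr175-ps1 at 9.43, Olfr180 at 9.05 and Olfr191 at 8.64 followed. The lowest were Olfr197 at 0.229, Olfr194 at 0.462, Olfr202 at 0.504 and Olfr172 at 0.714, the 4 genes below 1. High and low genes lie side by side: Olfr194 and Olfr195 are neighbours, 28.8 kb apart.

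Receptor families in the distal cluster occupy mostly neighbouring stretches, with some mixing near Olfr194 to Olfr197, and differed in median. All entries of the families MOR182, MOR183 and MOR184 in the table are in this cluster, so family and position cannot be told apart. The 7 MOR184 genes had a median of 9.05. In order, they were Olfr172 at 0.714, Olfr173 at 1.79, Olfr175-ps1 at 9.43, Olfr178 at 1.20, Olfr180 at 9.05 and Olfr181 at 9.43, all at the start of the cluster, and then Olfr195, set among MOR182 and MOR183 genes. Without Olfr195 the median was 5.42, so this 1 gene moves it by more than 1.5 times. The family holds both high genes and 3 at or below 1.79.

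The 8 MOR183 genes, towards the middle of the cluster, had a median of 4.81 and were closer to each other apart from 1. Olfr183 had 3.40, Olfr186 had 6.12, Olfr187 had 6.62, Olfr190 had 3.50, Olfr191 had 8.64, Olfr193 had 6.14 and Olfr196 had 2.83. The exception was Olfr197, at 0.229, which RefSeq types as a transcribed pseudogene and GENCODE as a polymorphic one (a gene disrupted in the reference strain). Olfr192, of the same types and 96.9% identical to Olfr190, had 2.01. The share of unique coding 50-mers was 54.1% for Olfr192 and 98.9% for Olfr197, and its part in these values was not tested. Olfr175-ps1, a pseudogene by its symbol that RefSeq and GENCODE both type as coding, had 9.43. Olfr192 has no MOR family name among its synonyms. Olfr176, which was matched to no RefSeq gene, had 4.01.

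The 10 MOR182 genes had the lowest median of the families, 1.46. All but Olfr194, which lies before the MOR183 genes Olfr196 and Olfr197, are at the far end of the cluster. The first 6 along the chromosome ranged from 0.462 to 1.71, with Olfr194 at 0.462, Olfr198 at 1.03, Olfr199 at 1.02, Olfr201 at 1.20, Olfr202 at 0.504 and Olfr203 at 1.71. The last 4 were Olfr204 at 3.32, Olfr205 at 5.42, Olfr206 at 3.68 and Olfr208 at 5.90. These 2 runs do not overlap in value. The split was chosen after the values were seen, and it is a description only.

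The Olfr166 cluster stood above the distal cluster by medians of 7.92 and 3.40, a difference of 1.19 on the log2(FPKM + 0.1) scale. The ranges overlap: Olfr195 of the distal cluster exceeded 6 of the 8 genes of the other. The order of the 2 clusters changed with the genes kept. When genes with under 80% unique coding 50-mers were left out, 3 genes remained in the Olfr166 cluster and 13 in the distal cluster, and the difference turned to -0.19. Without Olfr166 and Olfr168, an alternative chosen after the values were seen, it was 0.85.

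Near copies that share many 50-mers were listed with unequal values. Coding 50-mers were shared with another receptor by 30 of the 36 members. The other 6 were fully unique, against 339 of the 1098 entries with a coding sequence. For 28 of the 30 members, all such partners were on chromosome 16, a count not given here for all entries. Under 80% of the coding 50-mers were unique in 18 of 36 members (50%), against 33.7% of the 1098 entries with a coding sequence. In 10 pairs of members, 20% or more of the 50-mers were shared, with coding identities of 93.3% to 97.1%. The higher value of a pair was 1.31 to 7.52 times the lower, with a median of 1.93. The widest was Olfr180 at 9.05 against its neighbour Olfr178 at 1.20, with 94.1% identity. Their gene models differ in kind, however, with a locus of 2801 bases for Olfr180 and a coding-only one of 960 bases for Olfr178. Without this pair the range ended at 3.71. Olfr203 at 1.71 and Olfr194 at 0.462, whose sequences are shown above, made up that next pair although 58.3% of the 50-mers of Olfr203 occur in Olfr194. Pairs that share less than 20% are not counted in the range above. Among them, Olfr199 at 1.02 and Olfr201 at 1.20 were close in value, with 96.9% identity. Olfr178 at 1.20 and Olfr181 at 9.43 were far apart, with 89.9% identity. Across the distal cluster, the 13 genes with under 80% unique 50-mers had a median of 2.01 and the 13 with more had 3.68. In the Olfr166 cluster the order was the other way, with 10.5 for the 5 genes with less unique sequence and 3.21 for the 3 with more. The 50-mers were taken from coding sequence only, so longer gene models are covered in part, and read length is not given here. The part of shared reads in these values was not tested.

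**Figure D3:**
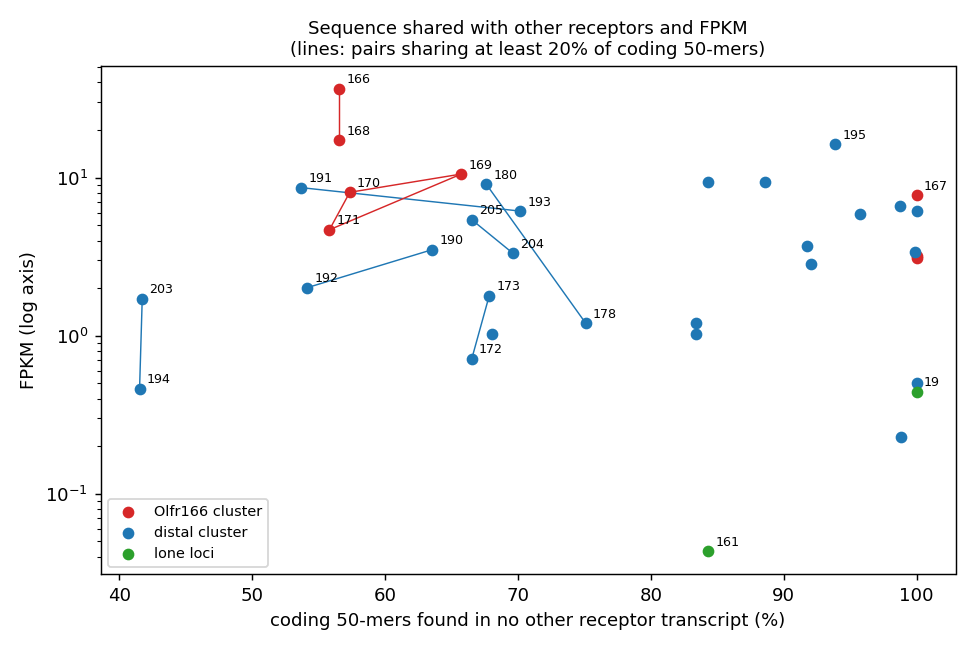
FPKM on a log axis against the share (%) of a gene's coding 50-mers found in no other receptor transcript, for the 36 members with a coding sequence. Points are genes, some labelled by Olfr number, and lines join the 10 pairs that share at least 20% of their 50-mers. Olfr166 and Olfr168 lie at the same share, 56.5%, and Olfr195 lies at 93.8%.

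Annotated gene structure also varied among the members, and how far the annotation itself depends on expression was not tested. None of the 36 matched members has a single exon in its longest coding transcript in GENCODE. Of the 1102 table entries found in GENCODE, 120 have a single exon, with a median FPKM of 0.0891. The 30 members with 2 exons had a median of 3.26, against 1.05 for all 627 such entries. The 6 of 36 members with 3 or more had 8.56, against 1.71 for 355 of the 1102 entries. The 6 are Olfr168, Olfr169, Olfr170, Olfr180, Olfr183 and Olfr202. Of these, only Olfr202, at 0.504, was below 1. The loci in the table were as long as the coding sequence, within 3 bases, for 29 members, the whole Olfr166 cluster included. The other 7 with a known coding length, all in the distal cluster, had longer gene models. Their median was 6.62, against 2.83 for the 19 coding-only genes of that cluster. All 7 belong to MOR183 or MOR184 and none to MOR182, so this contrast is mixed with that of the families. Among coding-only genes alone the 2 clusters differed by 1.45 log2 units.

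Both clusters were set against the other receptor clusters of the genome. Among 21 clusters of at least 10 entries the distal cluster had the fourth highest median. The Olfr166 cluster has too few genes for that list. With a minimum of 5 entries, chosen after the values were seen, 29 clusters could be ordered. The Olfr166 cluster then had the highest median, at 7.92, just ahead of a cluster of 5 on chromosome 6 at 7.68 and of the cluster of 19 on chromosome 7 from 147.3 to 147.9 Mb at 5.35. The 3 genes of the Olfr166 cluster with 80% or more unique coding 50-mers had a median of 3.21, so its first place was not shown for them. Among the 21 clusters of at least 10 entries, 1 had every entry at an FPKM of 1 or more. Among these 29 there were 5, the Olfr166 cluster included. With no replicates, its order against the cluster on chromosome 6 could not be tested.

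**Figure D4:**
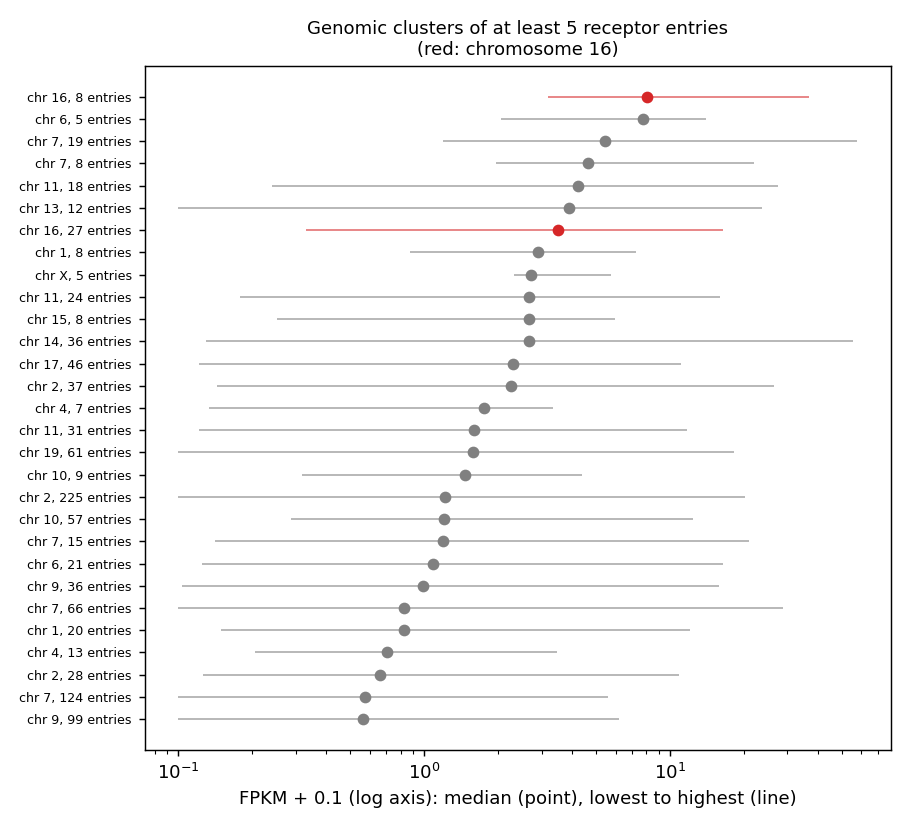
Median (point) and range (line) of FPKM + 0.1 on a log axis for the 29 receptor clusters of at least 5 entries, labelled by chromosome and number of entries. The 2 chromosome 16 clusters, in red, have medians of 7.92 (8 entries) and 3.40 (27 entries).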

How the data were processed

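FPKM values were deposited by the authors, 1 per receptor gene, per the file headers. TopHat2, Bowtie2, Cuffdiff and build mm9 are named in the submitters' processing notes, without versions; libraries were TruSeq from Trizol RNA, per the labels' protocols. No source used here gives the annotation or the handling of reads matching several genes. Locus starts count from 0 and were raised by 1. All gene coordinates are mm9.

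The members and lists were chosen with earlier results of these data known. Named are members at FPKM 5 or more, the 3 highest and lowest of each cluster, the neighbours of Olfr166, pseudogenes, and closest relatives; other members complete a family, and Olfr15, Olfr568 and Olfr1115 were named after their values were seen. RefSeq (GRCm38.p6) names matched 34 members by symbol and 2 by an older symbol, and gave the MOR families. GENCODE M21 (GRCm38) gave strands, exons and coding sequences, never coordinates. Identity came from global alignment (Biopython 1.88, Python 3.11.15). Entries with ps at the end of the symbol or a RefSeq pseudogene type counted as pseudogenes. Cluster and k-mer steps were tested on simulated data. Because genes are not replicates, no test was run. Alternatives covered the pseudocount, low values, status, pseudogenes, shared sequence, cluster gap and comparison set.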

Additional observations from a re-analysis of the deposited data

How the results depend on the processing

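With genes under 80% unique coding 50-mers left out, the difference between the Olfr166 and distal clusters turned from 1.19 to -0.19; that setting leaves 3 genes in the first, and no further cause was tested. Under the other alternatives run it ranged from 0.85 (without Olfr166 and Olfr168) to 1.45 (coding-only gene models), and splitting clusters at 0.5 or 5 Mb gave 1.19 and 1.17. The count of members past FPKM 1 went from 31 to 15 at a threshold of 5, as the threshold sets, and to 36 at 0.1. Olfr166 was 2.12 times the highest other gene of its cluster, against 4.70 times the median, and the cause is the higher reference. The median of the members stayed between 3.31 and 3.68, and their difference from the other entries between 1.14 and 1.73 log2 units. The alternatives with coding-only gene models, without Olfr168 and, for the members against the others, without genes of shared sequence were chosen after seeing the data. No paired analysis was possible because each gene has a single FPKM that belongs to neither sample; likewise no sample could be left out. Without a known depth, counting error on low values such as that of Olfr161 could not be given.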
